A study of Mus musculus with 9 samples.

Results

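The comparison described here sets CD4+ T cells that carried a vector for NFAT2-CARIT against cells with a control vector, in 3 libraries of each kind, which are 6 of the 9 libraries measured. The members are the libraries labelled NFAT2_CARIT and Control, and all genes of the deposited expression table were read in them. The other 3 libraries carried the NFAT2_CA vector. They enter the estimate of the spread and are named where they differ from NFAT2-CARIT. In all 3 groups the cells were primary murine CD4+ T cells of C57BL/6 mice, kept in RPMI-1640 with serum and transduced with a retrovirus, so the controls also went through transduction. Total RNA was sequenced as paired ends. The time of harvest, any restimulation, the share of transduced cells and any sorting on the vector are not in the labels. The labels also do not say whether the libraries of a group came from separate animals or cultures, so every p-value measures only the spread between these libraries, which may be technical. RNA came from bulk cells, where fewer cells of a kind and less RNA per cell cannot be told apart.

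NFAT proteins are transcription factors of activated lymphocytes. Calcium entering through the plasma membrane activates the phosphatase calcineurin, which strips phosphates from NFAT and lets it enter the nucleus. On the regulatory DNA of many cytokine genes NFAT then binds beside AP-1, a pair of Fos and Jun family proteins. NFAT2 is the product of Nfatc1. In published NFAT constructs CA marks a form that stays active without calcineurin, and RIT marks changes at the face that touches AP-1. NFAT acting without AP-1 is a textbook account of how T cells enter the hyporesponsive states called anergy and exhaustion, and the series title asks about NFAT2 signalling that does not depend on AP-1.

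Expression is given as CPM, a gene's reads scaled to a common library total. Differences are in log2(CPM + 1), NFAT2-CARIT minus Control, as the estimate ± SE from limma with an adjusted p. Means are given ± SD (n = 3 libraries). Genes with 1 CPM or more in 3 or more of the 9 libraries were tested, and a gene was called if its adjusted p (Benjamini-Hochberg over all 13096 tested genes) was under 0.05. Estimated depth was 23520700 to 31736200 reads in Control and 19945000 to 38184900 with NFAT2-CARIT, so 1 CPM stands for 19.9 to 38.2 reads. Between libraries of 1 group, genes differed by a median of 0.081 to 0.145 on the log2 scale in Control and 0.092 to 0.124 with NFAT2-CARIT. Between the groups that median was 0.419 to 0.453.

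Nfatc1 (chromosome 18, 80606205 to 80713071, minus strand, mm10) stood at 224, 228 and 188 CPM in Control replicates 1 to 3 and at 240.5, 245 and 253 CPM in NFAT2-CARIT replicates 1 to 3. The groups did not overlap, but the lowest NFAT2-CARIT library lay close above the highest Control. The difference was 0.21 ± 0.08 (adjusted p = 0.023), and the call was lost without Control replicate 3 (0.12, adjusted p = 0.10), without NFAT2-CARIT replicate 2 (0.21, adjusted p = 0.055) or without NFAT2-CARIT replicate 3 (0.19, adjusted p = 0.071). The sources used here do not give whether reads of the vector's insert were counted under Nfatc1, and this value does not measure the vector.

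Of the 13096 tested genes, 9202 (70.3%) were called. Higher calls numbered 3822 (29.2%) and lower calls 5380 (41.1%). A called difference of at least 2-fold was found for 1128 genes higher (8.61%) and 1130 lower (8.63%). For 9570 genes (73.1%) the ranges of the groups were fully separate. With most genes called, counts in the gene lists that follow are read against these shares. Of the genes called higher 466 had a Control mean under 1 CPM, and of those called lower 366 had an NFAT2-CARIT mean under 1 CPM. Such genes passed the filter through the other groups, so their difference was in part a condition for being tested. Differences of at least 10-fold were more frequent upwards, with 50 genes higher and 16 lower. The median difference of all tested genes was -0.09. Of the 16500 genes listed, 4216 have a step-up FDR under 0.05 for these groups in the authors' deposited table, and 4198 of these were called here too, each in the same direction. Most of the 9202 genes called here are therefore not called in that table. Of the 2258 genes called here at 2-fold or more, 1960 are called there.

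**Figure D1:**
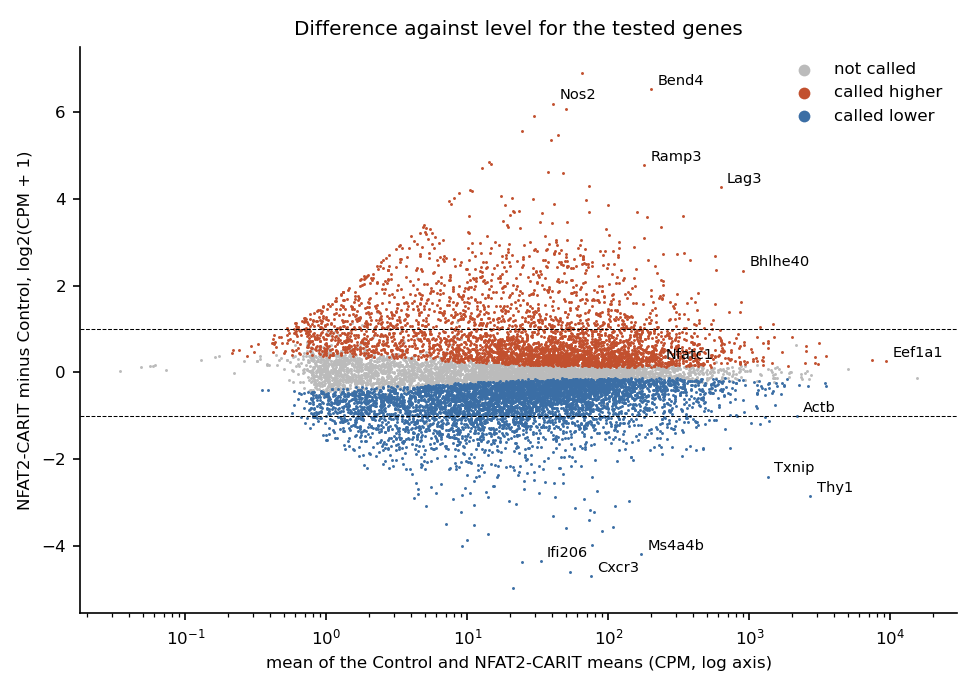
Each point is a tested gene, with the mean of the group means in CPM on a log axis and the difference in log2(CPM + 1) on the vertical axis. Red points were called higher, blue points lower and grey points were not called, and dashed lines mark 2-fold. Over all tested genes the differences run from -4.96 to 6.91, and among the labelled genes Bend4 is highest at 6.54 and Cxcr3 lowest at -4.69.

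Several of the largest rises were in genes of low level in Control. Ramp3 encodes an accessory protein of calcitonin-family receptors. It stood at 11.4, 11.2 and 12.2 CPM in Control and at 387, 338 and 313 CPM with NFAT2-CARIT, a difference of 4.78 ± 0.09 (adjusted p = 1.4e-15). Serpinb1a, an inhibitor of neutrophil-type proteases, went from 2.46, 2.87 and 3.33 CPM to 89.3, 96.6 and 93.1 CPM (4.6 ± 0.08). The libraries of the groups lie far apart for both genes. Sema4c, a plexin-binding membrane protein, went from 6.71, 6.14 and 5.71 CPM to 132, 143 and 143 CPM (4.29 ± 0.07). Within each group these values vary little beside the gap between the groups.

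Bend4, whose product carries a BEN domain, showed the same pattern, with 3.06, 3.81 and 3.00 CPM in Control and 399, 404 and 391 CPM with NFAT2-CARIT. Apod, the apolipoprotein D gene, was listed at 0 in each Control library and at 60.3, 58.6 and 59.1 CPM with NFAT2-CARIT, so no fold is given. Plek, a substrate of protein kinase C in blood cells, went from 2.00, 2.08 and 1.83 CPM to 73.9, 71.3 and 72.2 CPM (4.63 ± 0.06). The gain of Plek was smaller than with NFAT2-CA, by 1.56 (adjusted p = 1e-10). For Ramp3, Apod and Bend4 it was larger than with NFAT2-CA, by 1.65, 2.05 and 1.25 (largest adjusted p = 4.6e-09).

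Counted in CPM rather than in folds, the gains were led by genes of high expression and by Lag3, the receptor for MHC class II that inhibits T cells. Lag3 stood at 62.1, 65.2 and 55.1 CPM in Control and 1233, 1184 and 1148 CPM with NFAT2-CARIT (4.27 ± 0.06). Bhlhe40, a helix-loop-helix repressor, stood at 308, 303 and 274 CPM and 1548, 1491 and 1475 CPM (2.35 ± 0.06). Sdf4, a calcium-binding protein of the Golgi, stood at 883, 900.2 and 1011 CPM and 2148, 1975 and 1930.1 CPM (1.12 ± 0.07). No library of either group overlapped the other for Lag3, Bhlhe40 or Sdf4. Eef1a1 and Eef2, which encode translation elongation factors, gained more CPM than these genes at differences of 0.27 and 0.29, and neither call held under quantile normalization (adjusted p = 0.46 and 0.23). Rpl10-ps3 is listed as a pseudogene of a ribosomal protein and rose by 0.82. Its reads cannot be separated with certainty from those of the parent gene.

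The largest loss in CPM was in Thy1, a surface protein of mouse T cells. It stood at 4521, 4733 and 4989.9 CPM in Control and 648, 660.2 and 662 CPM with NFAT2-CARIT, a difference of -2.85 ± 0.05 (adjusted p = 3.7e-16). Txnip, a thioredoxin-binding protein that limits glucose uptake, went from 2268, 2264 and 2267 CPM to 402, 427 and 457 CPM (-2.40 ± 0.07). Actb, the cytoplasmic actin gene often used as a reference, fell from 2902 ± 86.0 to 1435 ± 45.9 CPM (-1.02 ± 0.05). Shisa5, a p53-responsive gene of the endoplasmic reticulum, fell by 1.13 and the cytoskeletal giants Macf1 and Ahnak by 1.18 and 1.03. The libraries did not overlap in any of these 6 genes.

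**Figure D2:**
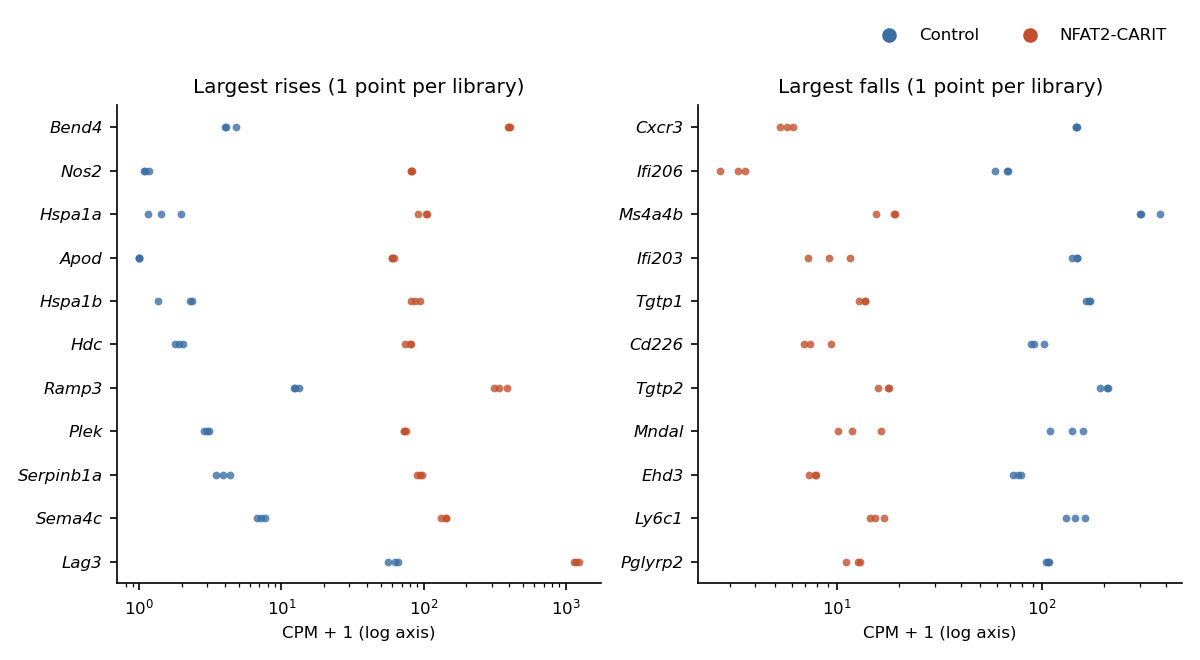
The 11 largest rises and 11 largest falls where the higher group averaged 50 CPM or more, with 1 point per library and CPM + 1 on a log axis. Blue points are Control and red points NFAT2-CARIT. The groups do not overlap for any of the 22 genes, which is part of how they were chosen.

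The largest falls by fold among the named genes included surface receptors and interferon-inducible genes. Cxcr3, the receptor that guides effector T cells to chemokines of inflamed tissue, stood at 144, 147 and 145 CPM in Control and 4.71, 4.26 and 5.11 CPM with NFAT2-CARIT (-4.69 ± 0.10), and it lay lower than with NFAT2-CA by 1.47 (adjusted p = 2.3e-08). Ehd3, which acts in endosome recycling, went from 75.1, 77.7 and 71.4 CPM to 6.31, 6.84 and 6.86 CPM (-3.30 ± 0.08). Pglyrp2, an amidase of bacterial peptidoglycan, went from 107, 104 and 106 CPM to 10.1, 11.6 and 11.9 CPM (-3.13 ± 0.08). Each of these groups of values is tight and far from the other. Cd226, an activating receptor that shares ligands with TIGIT, fell by 3.58, the resting T cell gene Ms4a4b by 4.19 and Ly6c1 by 3.22. Ms4a4b and Ly6c1 have near-identical neighbours, so their separate values are uncertain.

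Within the NFAT and calcium pathway, 24 of the 24 listed genes were tested, of which 5 were called higher, 14 lower and 5 were not called, with a median of -0.37 against -0.09 for all genes. Over all tested genes 29.2% were called higher and 41.1% lower. The store-operated calcium channels moved in opposite directions. Orai1, the pore subunit that carries most calcium entry in T cells, stood at 30.3, 29.3 and 29.8 CPM in Control and 105, 95.6 and 89.2 CPM with NFAT2-CARIT (1.66 ± 0.06). Orai2, a related subunit, stood at 142, 139 and 139.7 CPM and 49.0, 46.0 and 49.6 CPM (-1.52 ± 0.06). Orai1 libraries were all higher and Orai2 libraries all lower than Control. Among the factors, Nfatc2, which encodes NFAT1, went from 199, 203 and 157 CPM to 63.8, 71.4 and 69.3 CPM (-1.43 ± 0.09). Nfat5, a family member that calcineurin does not regulate, had 0.47 ± 0.14 (adjusted p = 0.015), and its call was lost without Control replicate 1 or 3 (adjusted p = 0.050 and 0.085). Ppp3ca, a catalytic subunit of calcineurin, fell by 0.97 and Itpr2, an intracellular calcium release channel, by 1.02. Its relative Itpr1 had 0.19 ± 0.07 with libraries that overlapped. Rcan1, a calcineurin inhibitor that NFAT induces, fell from 10.1 ± 1.01 to 6.85 ± 0.372 CPM (-0.50 ± 0.10), and it lay below the NFAT2-CA level by 1.16 (adjusted p = 5.3e-07). In place of 5 members of this list called higher, 2 were called without the trend in the spread, 1 without Control replicate 3, 3 without NFAT2-CARIT replicate 2 and 2 without NFAT2-CARIT replicate 3.

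In the AP-1 family and its partners 17 of 19 listed genes were tested, 8 called higher, 4 lower and 5 not called (median 0.08). Atf3, a stress-induced partner of Jun proteins, stood at 4.55, 5.83 and 6.04 CPM in Control and 35.6, 33.9 and 34.1 CPM with NFAT2-CARIT (2.46 ± 0.10). Irf4, which pairs with BATF and Jun on composite elements, stood at 35.3, 35.5 and 30.2 CPM and 139.7, 136 and 134 CPM (1.99 ± 0.07), and Fosl2, a Fos family member, at 197, 194 and 182 CPM and 676, 702 and 659 CPM (1.82 ± 0.05). In all 3 genes every NFAT2-CARIT library was above every Control library. The 3 gains were smaller than with NFAT2-CA, by 0.71, 0.63 and 0.37 (largest adjusted p = 9.1e-05). Fosb, at 0.179 ± 0.0676 CPM in Control, rose to 2.31 ± 0.705 CPM. Jund fell by 0.67, Maf, a large Maf factor of helper T cells, by 1.49, and Bach2, a repressor that competes for AP-1 sites, by 0.51. Jun itself was not called, at -0.72 ± 0.38 (adjusted p = 0.14), with libraries at 184, 61.7 and 117 CPM in Control and 61.8, 61.2 and 77.7 CPM with NFAT2-CARIT. Control replicate 1 stood far above the other Control libraries, and the groups overlapped.

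Signalling next to the T cell receptor was mostly lower. Of 35 genes tested 21 were called lower and 10 higher (median -0.32), against 41.1% lower and 29.2% higher over all tested genes. Lat, the scaffold phosphorylated on receptor engagement, fell from 346 ± 14.1 to 130.5 ± 1.6 CPM (-1.40 ± 0.06). The negative regulators Sit1, Ubash3a and Dok2 fell by 1.90, 1.46 and 1.38. Icos, a costimulatory receptor of the CD28 family, stood at 117, 112 and 109 CPM in Control and 378, 371 and 363 CPM with NFAT2-CARIT (1.71 ± 0.05), with no overlap. Ptpn6, the phosphatase SHP-1, rose by 1.40, Cd3e by 0.75 and the ubiquitin ligase Cblb by 0.70.

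Among feedback inhibitors 35 of 36 listed genes were tested, 17 higher and 10 lower (median 0.19). Phosphatases of the DUSP family and the G protein regulator Rgs2 led the rises. Dusp16, a phosphatase of JNK and p38, stood at 16.1, 16.0 and 13.7 CPM in Control and 98.9, 101 and 94.6 CPM with NFAT2-CARIT (2.61 ± 0.07). Rgs2 rose by 2.56, Dusp4 by 1.98 and Dusp2 by 1.95. Dusp6, a phosphatase of ERK, fell by 1.18, Rgs14 by 1.30, Rgs3 by 1.06 and Dgka, the diacylglycerol kinase linked to anergy, from 1438 ± 5.43 to 816 ± 41.6 CPM (-0.82 ± 0.06). Egr2, an anergy-linked factor that NFAT induces, stood near the detection filter at 1.27, 1.04 and 0.833 CPM in Control and 0.524, 0.687 and 0.952 CPM with NFAT2-CARIT. Its groups overlapped and it was not called (-0.25 ± 0.17, adjusted p = 0.2).

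Of 27 listed cytokine genes 22 could be tested, and the classical products of activated helper cells were near the limit of detection. Il2, the growth factor of activated T cells, stood at 0.565, 0.224 and 0.385 CPM in Control and 0.351, 0.169 and 0.361 CPM with NFAT2-CARIT. Ifng stood at 0.425, 0.126 and 0.167 CPM and 0.131, 0.824 and 0.401 CPM, and Csf2 at 0.340, 0.788 and 0.708 CPM and 0.681, 0.384 and 0.551 CPM. These 3 genes overlapped between the groups and were below the filter, so they were not tested and no difference was detectable at this depth. Il13 and Il17a were not tested for the same reason. Of the tested genes 8 were called higher and 10 lower (median -0.09), and 4 of them were under 1 CPM in a group.

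Il21, a cytokine of follicular helper and Th17 cells, was the cytokine with the largest rise. It stood at 1.48, 0.922 and 1.08 CPM in Control and 21.8, 18.8 and 17.0 CPM with NFAT2-CARIT (3.23 ± 0.13, adjusted p = 2e-12). Il10, an anti-inflammatory cytokine, stood at 1.83, 1.86 and 1.33 CPM and 11.3, 11.8 and 10.5 CPM (2.20 ± 0.11), below the NFAT2-CA level by 1.43 (adjusted p = 1e-07). Every NFAT2-CARIT library exceeded every Control library for both. Csf1, the macrophage growth factor, rose by 1.6 and the death ligand Fasl by 1.28. Il4, the Th2 cytokine, went from 3.31, 2.46 and 4.17 CPM to 6.00, 6.48 and 5.81 CPM (0.74 ± 0.14), and Cd40lg, the helper ligand for B cells, had 0.20 ± 0.06, a call lost without NFAT2-CARIT replicate 2 (adjusted p = 0.064). Tnf went from 5.44, 5.32 and 6.62 CPM to 4.01, 3.10 and 4.01 CPM (-0.53 ± 0.13). Lymphotoxin Lta, the death ligand Tnfsf10, Il16 and Ebi3, a subunit of IL-27 and IL-35, fell by 1.21, 1.21, 0.88 and 1.51. The authors' deposited table does not call Il4, Tnf or Cd40lg, with step-up FDR values of 0.3, 0.53 and 0.49. Of genes named elsewhere, it also does not call Nfatc1, Rcan1, Pdcd1, Foxp3, Gbp3, Psph and Tyms, among others. Their step-up FDR values there are 0.19, 0.34, 0.57, 0.55, 0.22, 0.27 and 0.32.

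Genes of the coinhibitory list moved in both directions. That list also holds the activating receptor gene Cd226, so not every fall in it is of a restraining receptor. Of 21 tested genes in the coinhibitory list, 12 were called higher and 7 lower, 9 and 4 of them by at least 2-fold (median 0.43), where 8.61% and 8.63% of all tested genes did so. Havcr2, which encodes TIM-3, stood at 0.978, 0.725 and 0.333 CPM in Control and 6.68, 6.95 and 6.31 CPM with NFAT2-CARIT (2.21 ± 0.16), above the NFAT2-CA level by 0.96 (adjusted p = 0.00035). Tigit stood at 17.5, 18.0 and 14.2 CPM and 68.9, 74.0 and 75.9 CPM (2.08 ± 0.08), Ctla4 at 179, 186 and 218 CPM and 398, 399.7 and 422 CPM (1.07 ± 0.07). The 3 receptors showed no overlap between the groups, although Havcr2 stayed at a low level. Nt5e, the ecto-enzyme CD73 that makes adenosine, rose by 2.11. Pdcd1, which encodes PD-1, stood at 4.12, 6.52 and 6.83 CPM and 7.62, 8.4 and 8.17 CPM (0.43 ± 0.14, adjusted p = 0.012), and its call was lost without Control replicate 1 (0.24, adjusted p = 0.078). Besides Cd226, the falls of at least 2-fold were in Lair1, a collagen receptor (15.2, 14.8 and 20.4 CPM in Control and 1.18, 1.78 and 1.5 CPM with NFAT2-CARIT), in Cd96, another receptor for TIGIT ligands (106 ± 4.37 to 22.8 ± 0.637 CPM), and in Ceacam1, a reported partner of TIM-3, by 1.37. Ceacam1 is not called in the authors' deposited table (step-up FDR 0.065).

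Receptors of the TNF receptor superfamily, many of them costimulators, were called higher in 9 and lower in 6 of 16 tested genes (median 0.37). Tnfrsf9, which encodes 4-1BB, stood at 82.8, 80.2 and 100.2 CPM in Control and 645, 583 and 558 CPM with NFAT2-CARIT (2.75 ± 0.09). Tnfrsf4, which encodes OX40, rose by 1.76, Tnfrsf1b, the second TNF receptor, by 1.61 and Tnfrsf23, a decoy receptor, by 1.33. Cd27, a costimulator of resting and memory cells, stood at 386, 387 and 389.6 CPM and 128, 139.9 and 129.9 CPM (-1.54 ± 0.05). Fas, the death receptor, fell by 0.72, Tnfrsf13b by 1.26 and Tnfrsf25 by 0.77.

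Cytokine receptors were mostly lower, with 20 of 27 tested genes called lower and 5 higher (median -0.47), against 41.1% and 29.2% of all tested genes. The 2 subunits of the IL-18 receptor fell together. Il18rap stood at 24.5, 23.1 and 25 CPM in Control and 2.02, 3.02 and 3.16 CPM with NFAT2-CARIT (-2.77 ± 0.14), and Il18r1 at 18.1, 20.7 and 23.5 CPM and 3.35, 5.30 and 7.17 CPM (-1.83 ± 0.18). Both lay above the still lower NFAT2-CA values, by 0.75 and 0.68 (larger adjusted p = 0.013). Il27ra fell by 1.61 and Il4ra, the shared chain for IL-4 and IL-13, from 950.2 ± 54.5 to 385 ± 3.64 CPM. The rises included Il1r2, a decoy receptor of IL-1, at 1.92, Ifngr2 at 0.70, Il12rb2 at 0.64 and Il7r at 0.30. Of 14 tested chemokine and sphingosine receptors, 8 fell by at least 2-fold and 3 rose by at least 2-fold (median -1.11). Besides Cxcr3, the inflammatory receptor gene Ccr2 fell from 9.59, 9.16 and 14.8 CPM to 0.943, 0.659 and 0.601 CPM. S1pr1, which lets lymphocytes leave lymph nodes, fell from 409 ± 12.1 to 166 ± 5.10 CPM (-1.29 ± 0.05). Ccr7, the lymph node homing receptor, rose from 365 ± 11.3 to 677 ± 55.0 CPM (0.89 ± 0.06), Cxcr4 by 1.43, Ccr8 by 1.79 and the fractalkine receptor Cx3cr1 from 0.0851, 0.126 and 0.125 CPM to 4.06, 3.62 and 4.46 CPM.

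Transcription factors of T cell lineage and state were called higher in 20 and lower in 17 of 41 tested genes (median 0.25), and 12 of the rises but 2 of the falls reached 2-fold. Runx2, a Runt factor known from bone, stood at 24.4, 23.3 and 18.0 CPM in Control and 279, 305 and 306 CPM with NFAT2-CARIT (3.71 ± 0.09), and Ets2 at 30.1, 28.6 and 25.9 CPM and 352, 355 and 334 CPM (3.58 ± 0.06). Both ranges are far apart. Ikzf3, the Aiolos gene, fell by 1.59 and Id2 by 1.14. Tox, an exhaustion-linked factor, stood at 15.4, 12.2 and 14.5 CPM and 29.2, 31.1 and 31.2 CPM (1.07 ± 0.08), below the NFAT2-CA level by 0.58 (adjusted p = 6.3e-05). Tcf7, a factor of naive and stem-like cells, stood at 1557, 1557 and 1458 CPM and 1049, 1062 and 1074 CPM (-0.52 ± 0.05). Foxp3, the regulatory T cell factor, was low at 5.98, 5.46 and 6.38 CPM in Control and 3.78, 3.76 and 4.68 CPM with NFAT2-CARIT (-0.45 ± 0.12).

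Of 24 nuclear receptors and partners tested, 13 were called higher and 4 lower (median 0.35). Nr4a2, an orphan receptor induced by receptor signals, stood at 4.29, 4.41 and 4.25 CPM in Control and 74.7, 77.8 and 81.1 CPM with NFAT2-CARIT (3.89 ± 0.06), below the NFAT2-CA level by 1.48 (adjusted p = 1e-10). Nr4a3 stood at 11, 10.1 and 7.5 CPM and 132, 138 and 138 CPM (3.71 ± 0.10), above the NFAT2-CA level by 0.57 (adjusted p = 0.0011). These relatives therefore differed between the vectors in opposite directions. Ahr, the aryl hydrocarbon receptor, stood at 2.93, 2.27 and 2.08 CPM and 45.2, 42.5 and 45.2 CPM. Rxra and Rara, subunits of the retinoic acid receptor, fell by 1.27 and 1.14. In the list of naive and quiescence genes 25 of 35 were called lower and 5 higher, with Igfbp4, an insulin-like growth factor binding protein, at 193, 182 and 178 CPM in Control and 43.0, 44.3 and 44.7 CPM with NFAT2-CARIT. The exceptions included Klf4, a quiescence factor, which rose by 1.63.

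Interferons signal through STAT factors and IRF9 to a large set of antiviral genes, whose promoters often hold the interferon-stimulated response element. In these cells 3 lists of such genes were mostly lower, where 41.1% of all tested genes were called lower and 29.2% higher. Of the p200 family, cytoplasmic and nuclear sensors of DNA, all 8 listed members were called lower, 7 of them by at least 2-fold (median -3.46). Of 17 interferon-inducible GTPases 14 were called lower and 2 higher (median -1.26). Of 37 other interferon-stimulated genes 28 were called lower and 5 higher (median -0.96). The p200 genes summed to 583 to 675 CPM in the Control libraries and 66.9 to 91.3 CPM with NFAT2-CARIT.

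The p200 genes lie in 1 cluster on chromosome 1 (173350879 to 173942672), and the first gene of that span fell least. Aim2, the inflammasome sensor, fell by 0.39, while the other 7 members ranged from -3.07 (Ifi209) to -4.35 (Ifi206). Mndal stood at 108, 139 and 156 CPM in Control and 9.14, 10.9 and 15.4 CPM with NFAT2-CARIT (-3.41 ± 0.18), and Ifi203 at 139, 148 and 147 CPM and 6.26, 8.18 and 10.6 CPM (-3.99 ± 0.16). None of the 8 had overlapping groups. These genes are close copies of each other, and the sources used here do not give how reads shared between copies were counted, which leaves single members uncertain.

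The guanylate-binding protein genes lie in clusters on 2 chromosomes. The 6 Gbp genes on chromosome 5 (105014150 to 105346472) were all called lower, from 0.75 for Gbp8 to 2.02 for Gbp9. Of the 4 on chromosome 3 (142493978 to 142638008), Gbp2 rose by 0.43 and Gbp3 by 0.35, Gbp7 fell by 1.06 and Gbp5 was not called (-0.04). Gbp2 stood at 181, 180.3 and 171 CPM in Control and 254, 235 and 228 CPM with NFAT2-CARIT, and it lay below the NFAT2-CA level by 0.49 (adjusted p = 1.6e-05). Spans of Gbp8, Gbp9 and Gbp4 overlap in the deposited coordinates, so their reads may be shared. Tgtp1 and Tgtp2, near-identical neighbours on chromosome 11, stood at 169, 163 and 167 and 206, 189.9 and 207 CPM in Control and 12.8, 12.7 and 11.7 and 14.9, 16.7 and 17.0 CPM with NFAT2-CARIT. Gvin1, a giant GTPase, fell by 2.98 and Iigp1 by 2.15.

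A short sequence recurred in the promoters of these genes. RefSeq stretches (GRCm38.p6) from before the starts of Tgtp1 and Tgtp2, the GTPase genes with the largest falls, are shown for how alike they are around the interferon motif, with the match to GAAANNGAA in capitals, 77 bases before the start of Tgtp1 (chr11:48992290-48992348, minus strand) and 70 before that of Tgtp2 (chr11:49064249-49064307, minus strand).
Tgtp1: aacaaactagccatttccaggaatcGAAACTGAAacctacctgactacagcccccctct
Tgtp2: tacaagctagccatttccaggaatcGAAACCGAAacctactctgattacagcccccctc
Motifs were searched on both strands in the 250 bases before each RefSeq start, which gave 32851 windows of 27025 genes and covered 9204 of the 13096 tested genes. The interferon motif GAAANNGAA was found in 9 of 10 windows of the GTPase list (90%), in 7 of 10 of the p200 family (70%) and in 11 of 35 of the other interferon-stimulated genes (31.4%), against 7.13% of all windows. Windows were matched for only 9 of the 17 tested GTPase genes. The motif was in 5.89% of windows of tested genes without a 2-fold call. It was in 5.27% of windows of genes called at least 2-fold higher and 8.57% of those at least 2-fold lower. A match describes the letters only and shows no binding. Windows of close copies share their source.

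Other interferon-stimulated genes followed the same direction with exceptions. Samd9l, an antiviral restriction factor, stood at 129, 118 and 140.0 CPM in Control and 19.6, 24.6 and 26.9 CPM with NFAT2-CARIT (-2.40 ± 0.10). Lgals3bp, Ifi27 and Xaf1 fell by 2.38, 2.17 and 2.24. Rsad2, which encodes viperin, went the other way, from 4.21, 4.03 and 2.62 CPM to 16.9, 15.5 and 17.0 CPM (1.94 ± 0.13), as did Phf11b (1.22), Ifi27l2a (1.14) and the exonuclease gene Isg20 (0.75). MHC class I presentation was divided, with 13 of 24 genes called lower and 5 higher (median -0.23). H2-T24, a nonclassical class I gene, fell by 2.24 and the immunoproteasome subunit genes Psmb10 and Psmb8 by 1.07 and 0.68. The Qa genes H2-Q6, H2-Q7 and H2-Q4 rose by 0.91, 0.69 and 0.44, and as near-identical relatives they are uncertain one by one.

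**Figure D3:**
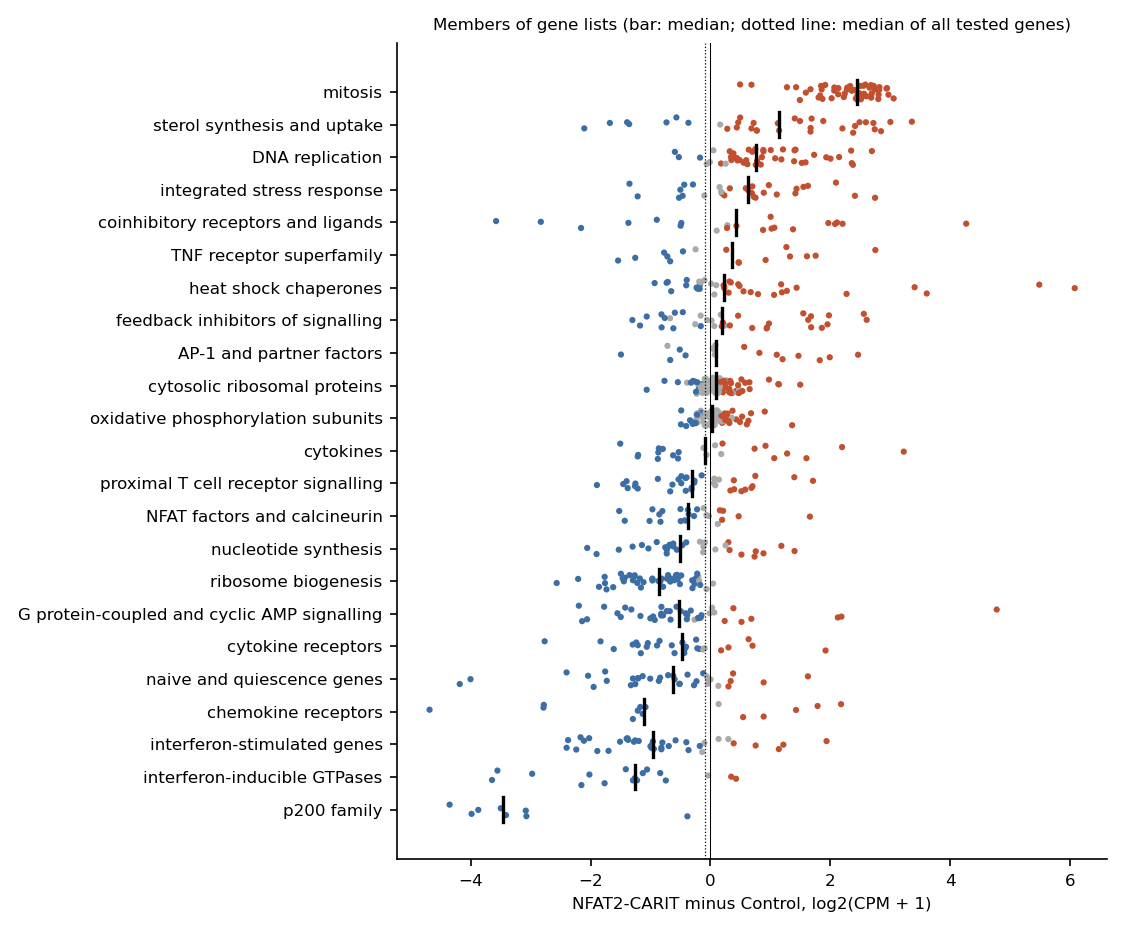
Each point is a tested member of a gene list, placed by its difference in log2(CPM + 1). Red points were called higher, blue lower and grey points were not called, black bars are list medians and the dotted line is the median of all tested genes. Mitosis genes lie to the right of 0 and the p200 family to the left, while most other lists lie on both sides.

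Genes of cell division were the list with the highest median, 2.45. Of 55 mitosis genes listed and tested, 55 were called higher, 53 by at least 2-fold, where 29.2% and 8.61% of all tested genes were. Summed over the list, the libraries held 1994 to 2073 CPM in Control and 8205 to 8686 CPM with NFAT2-CARIT. Nek2, a kinase that separates centrosomes, stood at 10.5, 10.8 and 9.20 CPM in Control and 88.3, 93.7 and 93.8 CPM with NFAT2-CARIT (3.06 ± 0.07). Anln, the anillin scaffold of the cleavage furrow, went from 13.6, 12.8 and 14.2 CPM to 103, 108 and 123 CPM (2.95 ± 0.08) and Kif4, a chromosome-bound kinesin, from 9.72, 8.60 and 9.21 CPM to 75.6, 78.4 and 76.8 CPM (2.94 ± 0.07). In none of these genes did a library of one group reach the other. The phosphatase gene Cdc25c, which triggers entry into mitosis, rose by 2.97. The smallest rises were in Smc4 and Bub3, at 0.49 and 0.69. The median difference between NFAT2-CARIT and NFAT2-CA over these genes was 0.23, against -0.03 over all tested genes.

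DNA replication genes rose less. Of 46 tested, 39 were called higher and 3 lower, with 17 rises of at least 2-fold (median 0.75). Lig1, the ligase that joins Okazaki fragments, stood at 17.6, 18.3 and 15.0 CPM in Control and 121, 111 and 112 CPM with NFAT2-CARIT (2.69 ± 0.08), and Top2a, a topoisomerase of dividing cells, at 193, 200.02 and 172 CPM and 959.8, 970.0 and 976 CPM (2.36 ± 0.06). Cdc45 and Mcm10, which activate the replicative helicase, rose by 2.35 and 2.38. The falls were in Orc2 (-0.53), Pold2 (-0.59) and Rpa1 (-0.17), the last of which was not called with TMM factors (adjusted p = 0.16). None of these 3 falls is called in the authors' deposited table (step-up FDR 0.15, 0.0502 and 0.28). Among regulators of the G1 phase, 16 of 33 tested genes were called higher and 12 lower (median 0.15). E2f7 and E2f8, repressors of the E2F family, rose by 2.60 and 2.39, and the cyclin-dependent kinase inhibitors Cdkn2c and Cdkn1a by 1.53 and 1.09. Ccnd2, cyclin D2, stood at 669, 674 and 587 CPM in Control and 179.7, 188 and 193 CPM with NFAT2-CARIT (-1.78 ± 0.06). Myc, the growth factor-induced transcription factor, stood at 109, 103 and 108 CPM and 30.9, 31.2 and 30.2 CPM (-1.76 ± 0.06). Both were lower in every NFAT2-CARIT library than in any Control library.

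Promoters of mitotic genes are known for a CCAAT box, bound by NF-Y, near a CHR element (TTTGAA), which binds the MuvB complexes. From the mitosis genes that hold the CHR letters, examples with large rises are shown with 1 match each in capitals. They are Ect2, a guanine nucleotide exchange factor of cytokinesis that rose by 2.82 (chr3:27153962-27154017, minus strand, 114 bases before the start) and Mki67, the proliferation marker, which rose by 2.69 (chr7:135716465-135716520, minus strand, 116 bases before the start).
Ect2: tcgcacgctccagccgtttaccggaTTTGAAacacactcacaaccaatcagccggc
Mki67: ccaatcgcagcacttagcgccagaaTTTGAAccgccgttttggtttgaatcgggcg
CCAAT was found in 39 of 51 windows of the mitosis list (76.5%), against 33.8% of all windows, and TTTGAA in 19 of 51 (37.3%), against 16%. In the DNA replication list the E2F motif TTTNGCGC was found in 6 of 44 windows (13.6%), and in 4 of 51 of the mitosis list (7.84%). It was found in 1.13% of all windows and in 2.11% of those of tested genes without a 2-fold call. All 3 motifs can match either strand and may overlap other motifs.

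Ribosome biogenesis moved opposite to cell division. Of 46 tested genes 42 were called lower, 19 by at least 2-fold, and 0 higher (median -0.85), where 41.1% of all tested genes were called lower. Polr1b and Polr1a encode the 2 large subunits of RNA polymerase I, which transcribes ribosomal RNA. Polr1b stood at 12.8, 11.6 and 11.2 CPM in Control and 1.31, 1.32 and 0.902 CPM with NFAT2-CARIT (-2.57 ± 0.14). Polr1a stood at 74.3, 82.0 and 64.9 CPM and 13.4, 15.8 and 16.2 CPM (-2.21 ± 0.09). Dkc1, the pseudouridine synthase dyskerin, stood at 39.3, 35.9 and 36.0 CPM and 9.63, 9.72 and 9.07 CPM (-1.86 ± 0.08). For these genes the lowest Control library was far above every NFAT2-CARIT library. Mybbp1a, a nucleolar protein, fell by 1.77. The list summed to 3193 to 3435 CPM in Control and 2235 to 2283 CPM with NFAT2-CARIT. The E-box CACGTG, a site of MYC and related factors, was found in 2 of 49 windows of the list (4.08%). It was found in 6.02% of all windows and in 8.44% of those of tested genes without a 2-fold call.

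The ribosomal protein genes themselves were mostly not called. Of 84 cytosolic ribosomal protein genes tested, 46 were not called, 27 were called higher and 11 lower (median 0.09), and 4 were called lower with TMM factors, 6 without NFAT2-CARIT replicate 2 and 7 without either Control replicate 3 or NFAT2-CARIT replicate 3. Rpl12 fell by 1.06, and the many processed pseudogenes of this family make single genes uncertain. Nucleotide synthesis was also more often lower, with 18 of 32 genes called lower and 8 higher (median -0.52). Over all tested genes 41.1% were called lower and 29.2% higher. Dhodh, the mitochondrial step of pyrimidine synthesis, stood at 10.6, 8.28 and 8.17 CPM in Control and 1.15, 1.54 and 1.5 CPM with NFAT2-CARIT (-2.06 ± 0.14). Gart and Atic, enzymes of purine synthesis, fell by 1.90 and 1.53, and Nme1, a nucleoside diphosphate kinase, by 1.30. The rises in the list were led by genes of deoxynucleotide supply, the ribonucleotide reductase subunits Rrm2 (1.40) and Rrm1 (1.18), and included Tyms (0.76). These 3 genes also belong to the replication list.

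**Figure D4:**
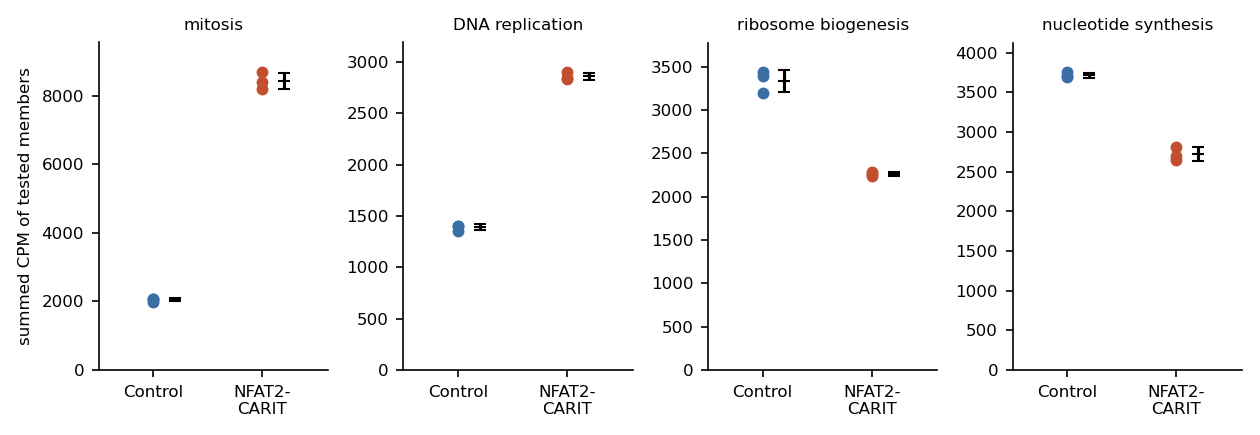
Summed CPM of the tested members of 4 growth lists, with 1 point per library and the mean ± SD (n = 3 libraries) beside each group. Mitosis and DNA replication sums are higher in every NFAT2-CARIT library, and ribosome biogenesis and nucleotide synthesis sums are lower in every one.

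Genes of sterol synthesis were mostly higher, and those of fatty acid metabolism moved in both directions. Of 34 genes of sterol synthesis and uptake 26 were called higher and 7 lower, 18 and 4 of them by at least 2-fold (median 1.14). Over all tested genes 29.2% were called higher and 41.1% lower. Cyp51, the lanosterol demethylase, stood at 39.8, 42.5 and 41.3 CPM in Control and 434, 434 and 431 CPM with NFAT2-CARIT (3.36 ± 0.06). Msmo1, Fdps and Hmgcs1, other enzymes of the pathway, rose by 3.00, 2.85 and 2.74. The falls of at least 2-fold were in genes that lower cell cholesterol or sense it. Abca1 and Abcg1, the cholesterol exporters, fell by 1.68 and 1.36, Mylip, the ligase that degrades the LDL receptor, by 2.11 and Scap, the escort of SREBP, by 1.39. Mylip stood at 23.2, 26.7 and 23.6 CPM in Control and 4.37, 4.37 and 6.16 CPM with NFAT2-CARIT, without overlap. In fatty acid metabolism 16 of 38 tested genes were called higher and 11 lower (median 0.10), with the desaturases Scd1 and Fads2 at 3.48 ± 0.08 and 3.49 ± 0.15, the acyl-CoA synthetase Acsl3 at 2.66 ± 0.06 and the triglyceride enzyme Dgat1 at 2.37 ± 0.06. Scd1 stood at 8.20, 8.12 and 6.58 CPM in Control and 92.9, 95.5 and 95.7 CPM with NFAT2-CARIT. Fabp5, a fatty acid binding protein, fell by 1.69, the monoglyceride lipase gene Mgll by 1.21 and Acsl1, another acyl-CoA synthetase, by 1.04. Neither Mgll nor Acsl1 is called in the authors' deposited table (step-up FDR 0.10 and 0.093). Dgat1 lay above the NFAT2-CA level by 1.30 (adjusted p = 6.7e-10).

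The sterol regulatory element TCACNCCAC was found in 1 of 32 windows of the sterol list (3.12%), against 1.05% of all windows, and CCAAT, a common neighbour of that element, in 22 of 32 (68.8%), against 33.8%. The window with the element belongs to Hmgcs1, the HMG-CoA synthase gene, shown with the match in capitals (chr13:119690189-119690247, plus strand, 137 bases before the start).
Hmgcs1: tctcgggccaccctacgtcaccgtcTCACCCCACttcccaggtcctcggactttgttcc

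Genes of the integrated stress response were more often called higher than lower. Of 29 tested genes of this ATF4 program, which answers amino acid shortage, 19 were called higher and 7 lower (median 0.63). Asns, asparagine synthetase, stood at 2.76, 3.12 and 3.00 CPM in Control and 30.2, 24 and 23 CPM with NFAT2-CARIT (2.75 ± 0.11). Pycr1, an enzyme of proline synthesis, stood at 0.553, 0.819 and 0.75 CPM and 8.19, 8.62 and 7.42 CPM (2.41 ± 0.12). Psat1, of serine synthesis, rose by 2.10 and Got1 by 1.63. Mthfd1 and Stc2 fell by 1.35 and 1.22, and Psph, the last enzyme of serine synthesis, by 0.50. Among cytosolic aminoacyl-tRNA synthetases 11 of 22 were called higher and 7 lower (median 0.33), with Cars at 2.07, Aars at 1.44, Iars at 1.03 and Mars1 at 0.98, against Farsa at -0.77 and Wars at -0.72. Of 20 tested amino acid transporter genes 8 were called higher and 9 lower (median -0.05). Slc7a5, a transporter of large amino acids, and its partner chain Slc3a2 rose by 2.33 and 2.11. Slc6a13, Slc43a2, Slc7a6 and Slc25a22 fell by 1.06, 0.84, 0.75 and 0.67. Slc6a13 and Slc25a22 are not called in the authors' deposited table (step-up FDR 0.23 and 0.051).

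The ATF4 element TGATGNAA was found in 6 of 30 windows of the stress list (20%) and in 3 of 16 of the synthetase list (18.8%), against 3.45% of all windows. It is shown in capitals for the genes of that list with the largest rises, Asns (chr6:7693210-7693257, minus strand, 23 bases before the start) and Pycr1 (chr11:120643819-120643876, minus strand, 103 bases before the start).
Asns: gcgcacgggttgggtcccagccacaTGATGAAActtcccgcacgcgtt
Pycr1: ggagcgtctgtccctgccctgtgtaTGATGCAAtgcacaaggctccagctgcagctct

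Chaperone genes were led by the inducible members. Of 37 tested, 21 were called higher and 10 lower, and 10 rises reached 2-fold (median 0.23). Hspa1a and Hspa1b, neighbouring near-identical genes of the inducible HSP70, stood at 0.951, 0.158 and 0.420 and 1.37, 0.346 and 1.29 CPM in Control and at 103, 104 and 89.6 and 80.0, 85.4 and 93.4 CPM with NFAT2-CARIT, and the division of reads between them is uncertain. Hspa4l, an HSP110 relative, stood at 55.5, 53.5 and 41.9 CPM and 606, 628 and 629.5 CPM (3.61 ± 0.09). Hspb1, a small heat shock protein, was listed at 0 in each Control library and at 12.2, 9.76 and 7.43 CPM with NFAT2-CARIT. In these genes every NFAT2-CARIT library was above Control. The cochaperone Ahsa1 fell by 0.93, Dnajc2, which binds ribosomes, by 0.73 and the chaperonin subunit Cct3 by 0.71. With TMM factors 6 chaperone genes were called lower. The heat shock motif GAANNTTC was found in 10 of 39 windows of the list (25.6%), against 6.69% of all windows. It is shown in capitals for Hspa1a (chr17:34972228-34972285, minus strand, 104 bases before the start), whose stretch is identical to that of Hspa1b.
Hspa1a: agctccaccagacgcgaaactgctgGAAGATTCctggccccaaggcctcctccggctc
In the endoplasmic reticulum, 26 of 35 chaperone and unfolded protein response genes were called higher and 3 lower (median 0.32), with Hspa5, which encodes BiP, at 243, 209.7 and 252 CPM in Control and 498, 479 and 466 CPM with NFAT2-CARIT (1.04 ± 0.07), Selenos at 1.93 and the sensor Ern1 at 1.01.

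Most genes of oxidative phosphorylation were not called. Of 80 tested subunits 48 were not called, 20 were called higher and 12 lower (median 0.03), and 7 were called lower with TMM factors or without NFAT2-CARIT replicate 3. Of 35 glycolysis and lactate genes 19 were called higher and 10 lower (median 0.17), with the lactate exporter Slc16a3 at 1.24. Pdk1, a kinase that inhibits pyruvate dehydrogenase, stood at 696, 693 and 777 CPM in Control and 206, 216 and 212 CPM with NFAT2-CARIT (-1.77 ± 0.06). Of 15 tested enzymes of nitric oxide, arginine, histamine and polyamine metabolism 7 were called higher, 2 lower and 6 were not called (median 0.12). The largest rises started from levels under 1 CPM or close to it. Nos2, the inducible nitric oxide synthase, stood at 0.0851, 0.0946 and 0.167 CPM and 80.6, 81.9 and 80.6 CPM. Arg1, arginase, stood at 15.0, 13.3 and 15.9 CPM with NFAT2-CARIT, while 2 Control libraries were listed at 0 and the third stood at 0.0418 CPM. Hdc, which makes histamine, stood at 1.02, 0.788 and 0.917 CPM and 78.5, 80.3 and 73.3 CPM. Arg1 lay above the NFAT2-CA level by 1.66 (adjusted p = 7.9e-08), and Nos2 differed from NFAT2-CA by 0.00 ± 0.08 (adjusted p = 0.98). Gch1, which makes the cofactor of nitric oxide synthases, rose by 1.82, and Srm, spermidine synthase, fell by 1.16.

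Signalling through G protein-coupled receptors and cyclic AMP was mostly lower, with 29 of 40 tested genes called lower and 7 higher (median -0.53). Over all tested genes 41.1% were called lower and 29.2% higher. Adora2a, the adenosine receptor that raises cyclic AMP and restrains T cells, stood at 58.6, 49.8 and 52.7 CPM in Control and 253, 254 and 236 CPM with NFAT2-CARIT (2.19 ± 0.06). Crem, a cyclic AMP-responsive factor, rose by 2.13. Pde3b, a phosphodiesterase that destroys cyclic AMP, stood at 591, 563 and 491 CPM and 146, 165 and 167 CPM (-1.77 ± 0.07), and the adenylyl cyclase gene Adcy3 fell by 2.06. P2rx7, the ATP-gated channel, fell by 2.14 and the lysophospholipid receptor gene Gpr55 by 2.20. In the cytotoxic granule list, 10 of 19 tested genes were called lower and 7 higher (median -0.36). Gzmb, granzyme B, stood at 217, 213 and 233 CPM and 72.5, 68.5 and 74.6 CPM (-1.61 ± 0.08), whereas Nkg7, a granule membrane protein, rose from 8.80, 10.2 and 9.37 CPM to 52.8, 48.0 and 53.6 CPM (2.33 ± 0.07). In apoptosis, Bmf and Pmaip1, which encode BH3-only proteins, rose by 2.41 and 2.09, and Bid fell by 1.42.

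NFAT and AP-1 motifs were about as frequent before genes that rose as before genes that fell. The NFAT core GGAAAA was found in 18.3% of windows of genes called at least 2-fold higher, 19.2% of those at least 2-fold lower, 18.1% of the other tested genes and 20.4% of all windows. The AP-1 site TGANTCA was found in 4.2%, 5.54%, 4.11% and 6.75% of the same sets. Apod and Plek are examples of the largest rises named that hold the core. Their stretches are shown with 1 match of the core each in capitals, and neither stretch holds an exact TGANTCA. Near matches to the AP-1 site were not searched, and the Plek stretch holds similar letters (tgactcg). The stretches are those of Apod (chr16:31314892-31314947, minus strand, 114 bases before the start) and Plek (chr11:17008719-17008773, minus strand, 30 bases before the start).
Apod: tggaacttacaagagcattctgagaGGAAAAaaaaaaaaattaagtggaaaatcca
Plek: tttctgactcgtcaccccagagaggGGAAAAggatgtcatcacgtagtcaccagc
The window holds only the 250 bases before a start, and nothing follows from it about enhancers or about binding of NFAT.

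**Figure D5:**
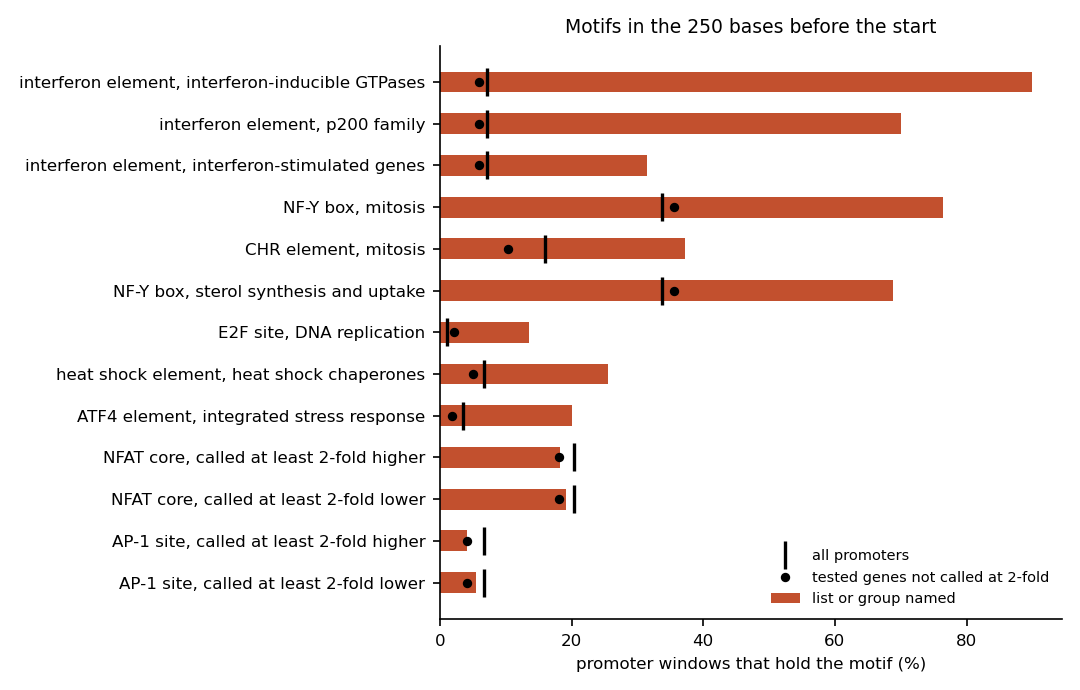
Bars give the percentage of promoter windows that hold a motif in the list or group named, vertical ticks the percentage in all 32851 windows and dots the percentage among tested genes without a 2-fold call. The interferon element stands out in the GTPase list at 90% of 10 windows, which cover 9 of its 17 tested genes. The NFAT core is at 18.3% before genes at least 2-fold higher and 19.2% before those at least 2-fold lower.

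Markers were read for CD4+ T cells and for other cells. Of 10 CD4 T cell markers 10 were tested, 4 called higher and 3 lower (median 0.07). They summed to 10679 to 11273 CPM in Control and 7494 to 7589 CPM with NFAT2-CARIT. Thy1 fell by 2.85, the largest difference of the list, and Cd3e rose by 0.75. Cd4 itself stood at 1612, 1596 and 1504 CPM in Control and 1609.6, 1698 and 1673 CPM with NFAT2-CARIT, which overlapped and was not called (0.08 ± 0.06). Of 10 B cell markers 4 were listed in the table used here, 3 of them at under 3 CPM. Ighm stood at 408, 417 and 419 CPM and 181, 189.7 and 202 CPM (-1.12 ± 0.05), while Cd79a was at 0.553, 0.693 and 0.458 and 0.288, 0.412 and 0.401 CPM. The B cell list summed to 412 to 423 CPM in Control and 182 to 205 CPM with NFAT2-CARIT, nearly all of it Ighm, and its part in the other falls was not tested. Of 15 myeloid and dendritic markers 7 were listed and summed to 79.8 to 87.8 CPM in Control and 91.8 to 102 CPM with NFAT2-CARIT, with Itgam falling from 7.82, 9.29 and 6.83 to 0.916, 1.40 and 1.70 CPM and Cd68, Cd74 and H2-Eb1 rising by 0.85, 0.77 and 0.77. The CD8 markers summed to 16.6 to 18.8 and 24.2 to 25.7 CPM. The 3 listed NK and innate lymphoid markers summed to 2.54 to 3.53 and 4.41 to 4.72 CPM, the 1 mast cell marker, Kit, to 2.25 to 2.85 and 3.57 to 3.81 CPM, and the 2 erythroid and platelet markers to 2.17 to 2.74 and 2.53 to 3.01 CPM. Kit is also 1 of the 3 NK and innate lymphoid markers, so these 2 sums are not separate readings. It averaged 2.53 of the 3.05 CPM of that list in Control and 3.72 of 4.52 CPM with NFAT2-CARIT.

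NFAT2-CARIT also differed from NFAT2-CA, the form with its AP-1 contact intact, at 3743 of the 13096 tested genes (28.6%), 1552 higher and 2191 lower. Among the genes described, the gap junction gene Gja1 showed the widest contrast. It rose over Control with NFAT2-CARIT by 2.06, from 0.340, 0.441 and 0.417 CPM to 6.23, 3.62 and 4.96 CPM, and lay 4.01 below the NFAT2-CA level on the log2 scale (adjusted p = 3.6e-11). Nkg7 and Dusp16 also lay lower with NFAT2-CARIT, by 1.17 and 0.96. Ctla4 and Tnfrsf1b lay higher, by 0.79 and 0.84. Cd40lg lay lower by 0.61 and Foxp3 by 0.71. The largest adjusted p among these 7 genes was 0.00048.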

How the data were processed

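RNA of 9 libraries, 3 each with the Control, NFAT2_CARIT and NFAT2_CA vectors, was read from 1 table of 16500 genes. The values are CPM made by the authors, scaled so that all library totals are equal, with 0.0001 added to every value. Per the submitters' processing notes, Partek 10, DESeq2 and mm10 were used, and the sources used here name no aligner and no strand setting. The authors' deposited comparison table holds per gene a ratio, a log2 ratio, a p-value and its step-up FDR, quoted as the authors' values. Depth was estimated from the step between low CPM values. Whole reads were recovered for 81.3% to 84.4% of values up to 1 CPM (within 0.1 read), under the 95% set for a count test, so none was run.

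From the CPM values, limma 3.58.1 (R 4.3.3) fitted group means over all 9 libraries to log2(CPM + 1), with a trended, robust spread, for the 13096 genes with at least 1 CPM in 3 libraries. The pseudocount of 1 understates differences of low genes. The script was tested on simulated data. Alternatives were other pseudocounts and filters, TMM factors, quantile normalization, the 6 libraries alone, no trend, a replicate block and leaving out each library. Promoter sequences are RefSeq's (GRCm38.p6), matched by symbol. Stretches shown are examples, chosen only where they overlap no annotated exon of their strand, and not every chromosome was drawn on.

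Gene lists and the comparison were chosen with earlier results of these data known. Named genes are Nfatc1, the 12 largest rises and falls at 50 CPM or more without overlap, the 6 largest gains and losses in CPM, up to 4 called members of each list in each direction, fixed cytokines, receptors and factors, and markers. Unnamed gene models (Gm and Rik names) were left out of this rule. Aim2, Bub3, Cd4, Ect2, Jun, Mki67, Smc4 and the genes Gbp5, Gbp7, Gbp8 and Gbp9 were chosen after their values were seen. Some genes are not reported here.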

Additional observations from a re-analysis of the deposited data

How the results depend on the processing

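Against 3822 genes called higher, 5380 lower, 1128 at least 2-fold higher and 1130 at least 2-fold lower, a pseudocount of 5 gave 682 and 535 at least 2-fold higher and lower, and a 10 CPM filter, which tests fewer genes, gave 735 at least 2-fold lower. Without each library in turn, higher calls ranged from 3561 to 3939, lower calls from 4997 to 5462, 2-fold higher calls from 1115 to 1134 and 2-fold lower calls from 1083 to 1190. Under the other alternatives these 4 counts lay within 1.5 times. Of 100 counts of called list members 82 stayed within 1.5 times under all 18 alternatives and 18 did not, most of them with the 10 CPM filter, where 7 fatty acid genes in place of 11 and 6 cytotoxic granule genes in place of 10 were called lower, and 4 amino acid transporters in place of 8 higher. The share of calls that were higher was 41.5%, and 47.6% with TMM factors. Of 354 named genes tested, 344 stayed on their side of the threshold under all alternatives, 10 lost a call in at least 1 and 0 reversed. Beyond those given with their values above, Itpr1, Rpl38 and Cd22 lost a call. The cause was not tested. Replicate numbers were not used to pair the libraries, and the labels do not say whether they do. Correlations of deviations between same-numbered Control and NFAT2-CARIT libraries were 0.021 to 0.044. Over all same-numbered pairs of the 3 groups they were -0.069 to 0.259, and not every library correlated best with its own number. With 3 libraries a group, these values cannot decide whether libraries were paired. The replicate block gave 3832 higher and 5346 lower calls, 1131 and 1130 of them at least 2-fold. Depth limits genes under about 1 CPM, where 1 read is a large part of the value.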
